A study of Danio rerio with 3 samples.

Results

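Potassium channel genes were followed in whole zebrafish larvae as the 110 rows of the deposited RPKM table whose symbol begins with *kcn* and 1 more letter, of 28084 rows that name a gene. RPKM is the number of reads of a gene scaled to its length and to the reads of the library, so RPKM values can be set side by side between genes. The 110 rows carry 109 symbols, since *kcnj13* stands on 2 rows, and they fall into 16 families by symbol. RNA-seq was run on 1 library each of 3 groups, all from whole larvae of the AB strain at 6 dpf (days post-fertilization). WT larvae were wildtype, uninjected and untreated. The 5MO larvae had been injected as early embryos with a morpholino, an antisense oligonucleotide directed against the autophagy gene *atg5*. The 5mRNA larvae had been injected with *atg5* mRNA. Each library is a pool of larvae, with no replicate of any group and no library from larvae injected with a control morpholino. The comparisons below are therefore between libraries, have no test, and cannot tell the injection apart from the loss or gain of *atg5*.

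Potassium channels let K+ cross the cell membrane and thereby set the resting potential and end electrical signals. Voltage-gated channels (*kcna* to *kcnd*, *kcnh* and *kcnq*) open on depolarization and repolarize neurons and muscle. Silent subunits (*kcnf*, *kcng*, *kcns* and *kcnv*) form no channel alone but alter *kcnb* channels. Inward rectifiers (*kcnj*) hold the membrane near the potassium equilibrium and carry K+ across the epithelia of the kidney and of zebrafish skin ionocytes, while two-pore channels (*kcnk*) carry a background leak. Calcium-activated (*kcnma* and *kcnn*) and sodium-activated (*kcnt*) channels open when those ions enter the cell, and accessory subunits (*kcnab*, *kcne*, *kcnip* and *kcnmb*) modify the pore-forming ones.

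Read pairs numbered 27492652 in WT, 28190319 in 5MO and 31140490 in 5mRNA. Of these, 87.63% to 87.88% mapped to 1 place. The RPKM values moved in whole-read steps, from which read totals of 19502144, 20301332 and 21857365 were recovered. The ratio of a gene's read shares between 2 libraries is given with a 95% Clopper-Pearson interval, which covers counting error only and not the spread between larvae or the duplicates made by PCR. The gene *atg5* was measured at 9.08 RPKM in WT, 7.69 in 5MO and 8.97 in 5mRNA. A morpholino need not lower the transcript it blocks, and the 5mRNA library held no more *atg5* reads per length than WT, so the levels do not check the labels. Of 12 neuron markers, 10 were higher in 5MO than in WT, with a summed level of 1257 RPKM in WT, 1378 in 5MO and 1270 in 5mRNA. Summed levels in the same order were 30570, 29064 and 32162 RPKM for 10 skeletal muscle markers and 84.0, 93.4 and 98.3 RPKM for 6 heart markers. In whole larvae, fewer cells of a type and less RNA per cell cannot be told apart.

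Most potassium channel genes were measured at low levels. In WT their median was 2.51 RPKM, against 3.59 RPKM over all named genes, and the 10 with the highest mean held 40.8% of their summed RPKM there. A mean of at least 0.5 RPKM over the 3 libraries was reached by 100 of the 110 rows, a mean of 1 by 85 and a mean of 10 by 11. All 100 are used in the counts of genes that follow, and sums of a family take all of its rows. A gene that is low in 1 library can reach this mean through the others. The 10 rows under that level included *kcns3b*, *kcnh2a*, *kcnj1a.2*, *kcnk12l*, *kcnk17*, *kcnk3b*, *kcnk4a*, *kcnn4* and *kcne4*. Of these, *kcns3b* had no read in WT or 5MO and 1 read in 5mRNA, while the other 109 rows were above 0 in each library. More than 3 reads in every library were found for 105 rows.

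The most abundant was *kcnma1a*, the large-conductance calcium-activated (BK) channel of neurons, muscle and hair cells, at 43.6 RPKM in WT, 38.6 in 5MO and 48.5 in 5mRNA. Small-conductance calcium-activated *kcnn1a* followed at 30.05, 25.4 and 30.1 RPKM. Next came 2 channels of the Kv3 family, which allow neurons to fire at high rates, *kcnc3a* at 24.4, 25.0 and 24.6 RPKM and *kcnc1a* at 20.5, 21.0 and 23.1 RPKM. Thus calcium-activated and fast-repolarizing neuronal channels headed the order in each of the 3 libraries. The KChIP subunits *kcnip1b* (18.7, 15.6 and 20.8 RPKM) and *kcnip3a* (17.5, 17.7 and 18.1 RPKM), which bind Kv4 channels, came after them and exchanged places between libraries. The delayed rectifier *kcnb2* stood at 15.98 RPKM in WT, 11.4 in 5MO and 12.996 in 5mRNA. By family, the summed level in WT was highest for *kcnj* at 87.6 RPKM over 25 rows and for *kcnc* at 65.8 RPKM over 5 rows, followed by *kcnip* at 49.2 RPKM over 5 rows and the single *kcnma1a*. The 46 voltage-gated and silent subunit genes together held 208 RPKM in WT, 203 in 5MO and 212 in 5mRNA.

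**Figure D1:**
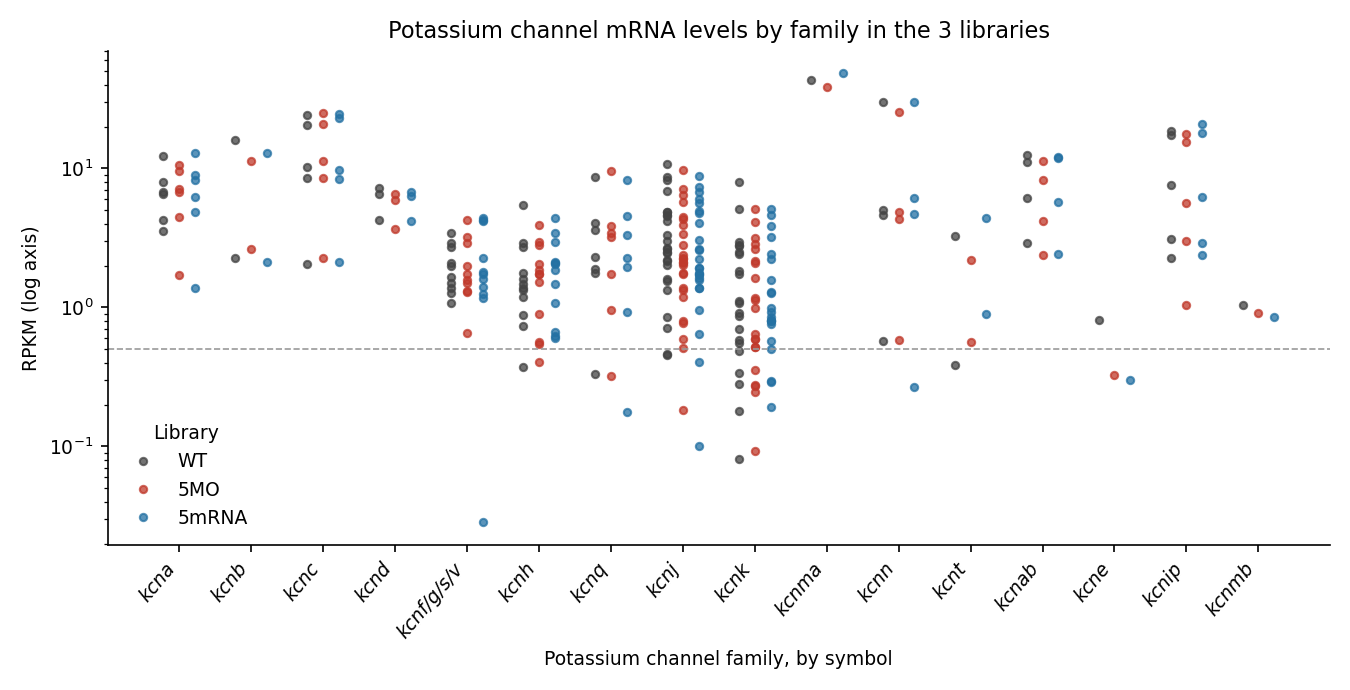
RPKM of each potassium channel gene on a log axis, by family, with 1 point per gene in WT (grey), 5MO (red) and 5mRNA (blue); the dashed line is the mean of 0.5 RPKM used as the filter, and values of 0 (*kcns3b* in WT and 5MO) cannot be drawn. *kcnma1a* lies highest in each library, at 43.6, 38.6 and 48.5 RPKM, and *kcnj* and *kcnk* hold the most genes.

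The first comparison asks what differs between larvae with the *atg5* morpholino and WT larvae. Potassium channel genes were lower in 5MO more often than higher. Of the 100 genes, 66 were lower and 34 higher, against 49% and 51% of the 20811 named genes over the same filter. The median log2 ratio of RPKM + 0.1 was -0.14 for the potassium channel genes and 0.007 for all genes, and their summed level was 452.6 RPKM in 5MO against 504.3 RPKM in WT, a ratio of 0.897. At least 1.5-fold lower were 17 of the 100, against 7.02% of all genes, and at least 1.5-fold higher were 6, against 6.51%. With a pseudocount of 1 in place of 0.1 these counts were 8 and 1. At 2-fold, 3 were lower (background 2.42%) and 0 higher (background 1.8%), on a scale that understates the ratios of low genes. The counting interval lay below 1 for 24 genes, against 20.1% of all genes, and above 1 for 6, against 20.3%. Low levels leave wide intervals, so these last shares depend on how abundant the genes are, and counting error is the only error they take in. The lower level of potassium channel genes in 5MO stood beside a higher level of the neuron markers given above, and the part of cell makeup in it was not tested.

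Against WT, the 5mRNA library showed no such shift. Of the 100 genes 48 were higher and 52 lower, against 51.3% and 48.7% of all genes, with a median log2 ratio of -0.02 against 0.009 over all genes. At least 1.5-fold higher were 6 (background 6.33%) and lower 9 (background 6.38%), and at least 2-fold higher 3 (background 1.83%) and lower 3 (background 2.23%). The 3 that were 2-fold higher, *kcnt2*, *kcnk7* and *kcnk13a*, were at 0.386, 0.283 and 0.335 RPKM in WT. They reached the filter only through the injected libraries. Of the 3 lower, *kcnk12* was at 0.297 RPKM in 5mRNA and reached the filter through the other libraries. The interval lay above 1 for 15 genes (background 18.7%) and below 1 for 13 (background 18.2%). The summed level was 500.3 RPKM in 5mRNA, 0.992 of WT.

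The direct comparison of 5MO with 5mRNA, both from injected larvae, uses the same 5MO library as the first. In it, 67 of 100 genes were lower in 5MO (background 50.6%) and 33 higher (background 49.3%), with a median log2 ratio of -0.11 against -0.004 over all genes. At least 1.5-fold lower were 10 genes (background 6.75%) and higher 5 (background 6.68%), while at least 2-fold lower were 4 (background 2.03%) and higher 1 (background 1.78%). The interval lay below 1 for 25 genes (background 21.7%) and above 1 for 8 (background 21.4%). Since the 3 comparisons share libraries, they are not independent of each other.

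**Figure D2:**
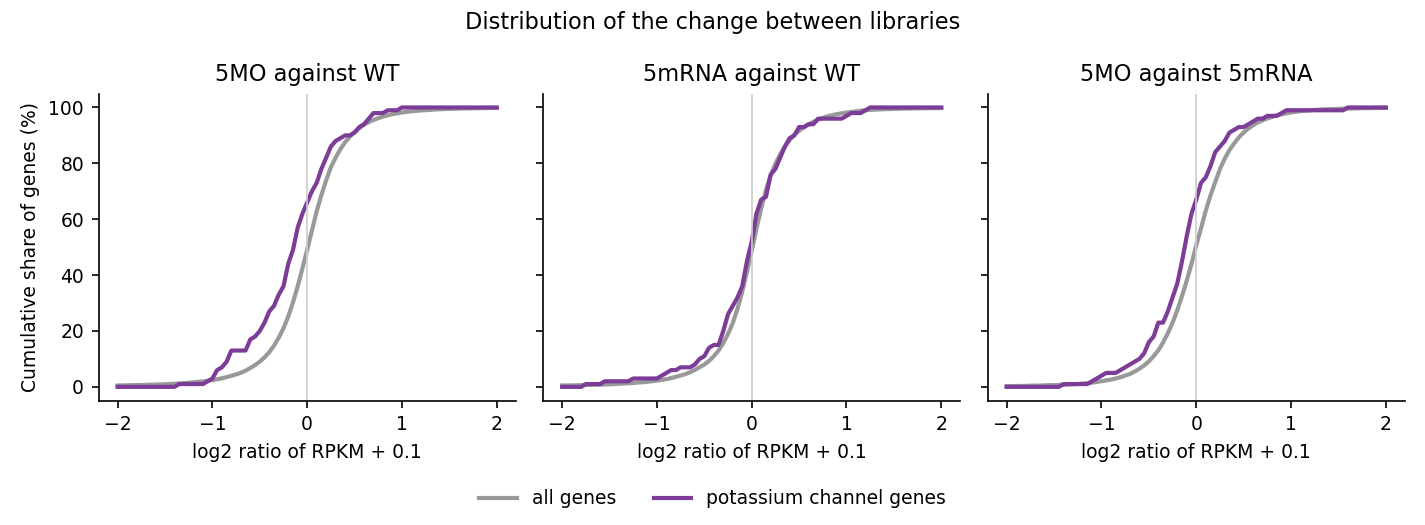
Cumulative share of genes (%) against the log2 ratio of RPKM + 0.1 in the 3 comparisons, for the 100 potassium channel genes (purple) and all 20811 genes over the filter (grey). The purple line lies to the left of the grey one over most of its course for 5MO against WT (medians -0.14 and 0.007) and for 5MO against 5mRNA (medians -0.11 and -0.004), and the lines nearly coincide for 5mRNA against WT.

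By class, the counts in 5MO can be set against the 49% of all genes that were lower than in WT. Of the 43 voltage-gated and silent subunit genes over the filter, 20 were higher and 23 lower than in WT, with a median log2 ratio of -0.01. Lower were 19 of 24 inward rectifier rows (median -0.24), 5 of 6 calcium- or sodium-activated genes (median -0.13) and 9 of 10 accessory subunits (median -0.27). Of the two-pore genes 10 of 17 were lower, a share near that of all genes, with a median of -0.22. At least 1.5-fold lower were 6 of the 17, against 7.02% of all genes, and at least 1.5-fold higher 3, against 6.51%. Their counting interval lay below 1 for 4 and above 1 for 0, against 20.1% and 20.3% of all genes. In 5mRNA, 16 of 24 inward rectifier rows were lower than in WT, with a median of -0.17, against 48.7% of all genes. The lower inward rectifiers include, in both injected libraries, the 6 *kcnj1* genes over the filter, which are not independent of each other. The 24 rows also hold both of the overlapping *kcnj13* rows. The 6 calcium- or sodium-activated genes were all higher there, with a median of 0.21, though *kcnn1a*, nearly equal to WT, falls below it when the libraries are rescaled, and the accessory subunits had a median of -0.06. A difference between classes was not tested, since there is no replicate from which to take a spread.

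**Figure D3:**
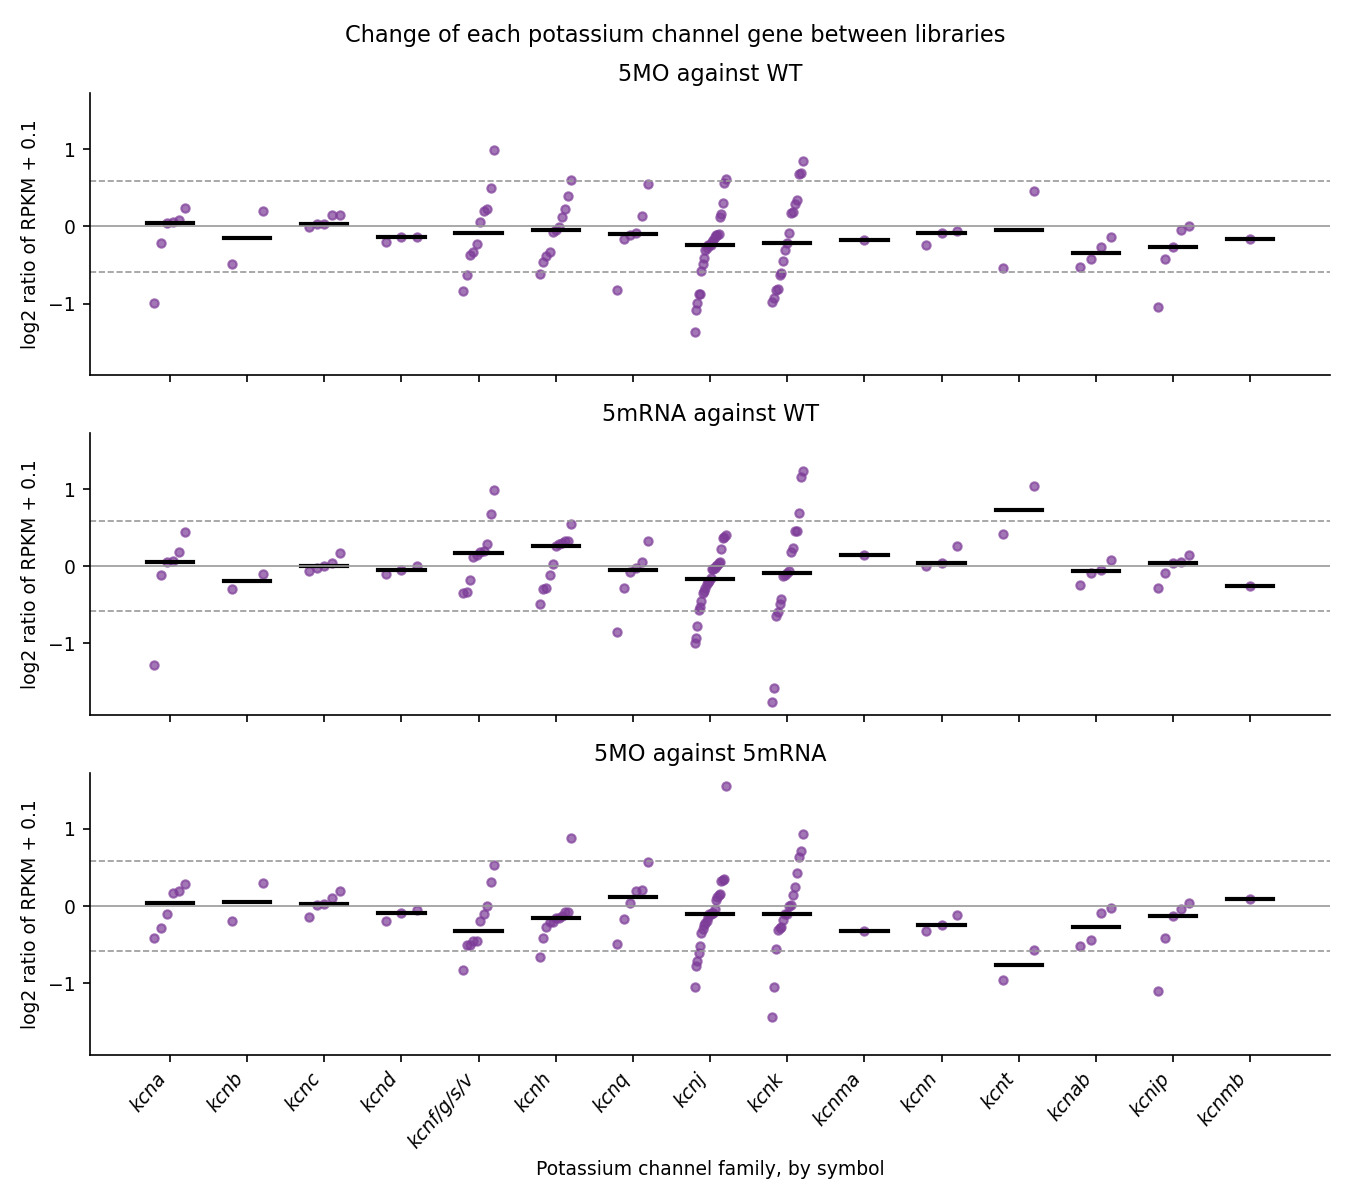
log2 ratio of RPKM + 0.1 of each of the 100 potassium channel genes over the filter, by family, for 5MO against WT, 5mRNA against WT and 5MO against 5mRNA; points are genes, black bars family medians and dashed lines 1.5-fold. In the top panel the *kcnj* (median -0.24), *kcnk* (-0.22), *kcnab* (-0.35) and *kcnip* (-0.26) medians lie below 0, while *kcna* (0.05) and *kcnc* (0.03) lie close to it.

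Among the Shaker-type *kcna* genes, channels of axons that set the threshold for firing, *kcna6a* differed most from WT. It was measured at 3.53 RPKM in WT, 1.72 in 5MO and 1.39 in 5mRNA, from 138, 70 and 61 reads. Both injected libraries were thus well under WT, with a ratio of 0.487 (0.360 to 0.654) for 5MO and of 0.394 (0.287 to 0.537) for 5mRNA. The gene lies at chr25:19849145-19853380 on the plus strand of danRer10, 3245 bp before *kcna1a* on the same strand. That neighbour, another axonal channel, did not share the pattern, with 8.04, 9.53 and 8.33 RPKM and a ratio in 5MO of 1.19 (1.03 to 1.36). The other *kcna* genes had ratios to WT between 0.863 (*kcna3a* in 5MO) and 1.37 (*kcna1l* in 5mRNA). Summed over the 6 genes the family held 41.4 RPKM in WT, 40.2 in 5MO and 42.7 in 5mRNA.

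Of the Kv2 delayed rectifiers on neuronal cell bodies, *kcnb2* was lower than WT in both injected libraries. From 936, 693 and 853 reads its ratio was 0.711 (0.644 to 0.785) in 5MO and 0.813 (0.740 to 0.893) in 5mRNA. The 5 *kcnc* genes stayed close to WT in 5MO, with ratios from 0.996 (*kcnc2*) to 1.11 (*kcnc1b* and *kcnc4*), and the interval of each held 1. In 5mRNA, *kcnc1a* had a ratio of 1.13 (1.05 to 1.21). The 3 *kcnd* genes, which carry the transient A-type current, had ratios from 0.869 (*kcnd1*) to 0.905 (*kcnd3*) in 5MO and from 0.935 (*kcnd3*) to 0.998 (*kcnd1*) in 5mRNA. Each of these 6 intervals held 1.

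Of the silent subunits, *kcnv2b* had the largest increase of the 100 genes in 5MO on the log2 scale of RPKM + 0.1. In mammals *Kcnv2* is found in photoreceptors, where it joins Kv2 channels. It was measured at 2.09 RPKM in WT, 4.24 in 5MO and 4.23 in 5mRNA, from 78, 165 and 177 reads, so that both injected libraries lay at about the same level. Ratios to WT were 2.03 (1.54 to 2.70) and 2.02 (1.54 to 2.68). The paralog *kcnv2a*, at 1.66, 1.298 and 1.81 RPKM, had intervals that held 1 against WT. Of 11 rows of photoreceptor markers 8 were lower in 5MO than in WT, against 49% of all genes. These markers had summed levels of 2839 RPKM in WT, 2753 in 5MO and 2584 in 5mRNA. Their part in the *kcnv2b* difference was not tested. Lower than WT in 5MO was *kcng4b*, at 2.89, 1.58 and 2.27 RPKM with a ratio of 0.546 (0.389 to 0.761), while *kcng4a* was at 1.50, 1.74 and 1.17 RPKM. In 5mRNA, *kcnf1b* reached 4.44 RPKM against 2.73 in WT, a ratio of 1.63 (1.22 to 2.19), with 3.22 RPKM in 5MO.

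The *kcnh* family holds the ether-a-go-go, erg and elk channels. Its most abundant gene, the erg channel *kcnh7*, was at 5.47 RPKM in WT, 3.94 in 5MO and 4.42 in 5mRNA, with ratios to WT of 0.721 (0.618 to 0.841) and 0.808 (0.698 to 0.935). The erg channel *kcnh6a*, which repolarizes the heart of zebrafish larvae, was close to equal in the 3 libraries at 2.90, 2.82 and 2.97 RPKM. Its paralog *kcnh6b* was at 1.33, 2.07 and 1.07 RPKM, highest in 5MO, with a ratio of 1.56 (1.04 to 2.34) to WT and of 1.93 (1.28 to 2.95) to 5mRNA. Of the 11 *kcnh* genes over the filter, 10 were lower in 5MO than in 5mRNA, *kcnh6b* being the exception. In that comparison 67 of the 100 potassium channel genes and 50.6% of all genes were lower. The *kcnh* median log2 ratio was -0.16, and the interval lay below 1 for 2 of these genes. The erg gene *kcnh2a* did not reach the filter, at 0.373, 0.404 and 0.622 RPKM.

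Among the *kcnq* genes, *kcnq1*, which in mammals repolarizes the heart and serves secretory epithelia, was lower than WT in both injected libraries. It was measured at 1.76, 0.956 and 0.928 RPKM from 78, 44 and 46 reads, with ratios of 0.542 (0.366 to 0.794) in 5MO and 0.526 (0.357 to 0.767) in 5mRNA. The neuronal *kcnq3*, the most abundant of the family, was at 8.69, 9.55 and 8.27 RPKM with intervals that held 1. For *kcnq5a*, levels of 3.59, 3.21 and 4.54 RPKM gave a ratio of 0.706 (0.555 to 0.895) for 5MO to 5mRNA.

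The *kcnj1* genes were lower in 5MO as a group. In mammals *Kcnj1* (ROMK) secretes and recycles K+ in the kidney tubule, and in zebrafish *kcnj1* channels are known from ionocytes of the skin. The symbols *kcnj1a.1* to *kcnj1a.6* name a tandem cluster on the minus strand at chr18:48496310-48563723 of danRer10, 67414 bp long, and *kcnj1b* lies apart at chr10:39382935-39386332. Summed over the 7 genes the level was 14.4 RPKM in WT, 8.20 in 5MO and 9.86 in 5mRNA. All 6 genes over the filter were lower than WT in both injected libraries, with a median log2 ratio of -0.87 in 5MO and -0.39 in 5mRNA. Of all genes, 49% were lower than WT in 5MO and 48.7% in 5mRNA, and both comparisons share the WT library. The cluster holds closely related copies, among which the counting may have split or dropped shared reads, and *kcnj1a.5* and *kcnj1a.6* overlap on the same strand, so the 7 values are not independent of each other.

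The largest decrease of the 100 genes in 5MO was that of *kcnj1b*, at 2.15 RPKM in WT, 0.774 in 5MO and 1.71 in 5mRNA, from 64, 24 and 57 reads. Only the 5MO library was clearly low, with a ratio to WT of 0.360 (0.215 to 0.584) and to 5mRNA of 0.453 (0.269 to 0.742). In the cluster, *kcnj1a.3* was at 2.64, 1.19 and 1.75 RPKM from 66, 31 and 49 reads, with ratios to WT of 0.451 (0.285 to 0.701) and 0.662 (0.448 to 0.973). The most abundant of the cluster, *kcnj1a.6*, was at 3.32, 1.77 and 1.62 RPKM from 117, 65 and 64 reads, with ratios of 0.534 (0.388 to 0.729) and 0.488 (0.354 to 0.668). Both injected libraries thus lay under WT for these 2 genes. For *kcnj1a.1* (1.61, 1.35 and 1.39 RPKM), *kcnj1a.4* (1.55, 0.804 and 1.39 RPKM) and *kcnj1a.5* (2.66, 2.13 and 1.91 RPKM) each interval held 1. For *kcnj1a.4*, with a ratio in 5MO of 0.517 (0.175 to 1.39), the 13, 7 and 13 recovered reads may be too few by a whole multiple. Its intervals would then be too wide. The remaining *kcnj1a.2* was counted at 12, 5 and 3 reads.

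The level of other genes of K+ and salt transporting epithelia is given beside these. The Na-K-Cl cotransporter *slc12a1* of the kidney was at 3.49 RPKM in WT, 1.9998 in 5MO and 1.59 in 5mRNA, with ratios to WT of 0.572 (0.432 to 0.755) and 0.456 (0.338 to 0.609). The Na-Cl cotransporter *slc12a3* was at 12.04, 7.88 and 8.01 RPKM, with ratios of 0.654 (0.569 to 0.751) and 0.665 (0.581 to 0.761). These are the 2 lowest in 5MO relative to WT of 9 markers of ionocytes and kidney, and others went the other way, with ratios in 5MO of 1.40 (1.07 to 1.84) for the ionocyte factor *foxi3a* and 1.27 (1.203 to 1.34) for the pump subunit *atp1b1b*. Over all 9 markers, 5 were lower and 4 higher in 5MO, and the summed level was 197 RPKM in WT, 192 in 5MO and 167 in 5mRNA. In 5mRNA, 8 of the 9 were lower than in WT and 1 higher, against 48.7% of all genes lower. There the ratio to WT was 0.930 (0.694 to 1.25) for *foxi3a* and 0.899 (0.848 to 0.953) for *atp1b1b*. Whether fewer such cells went with the lower *kcnj1* levels was not tested.

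**Figure D4:**
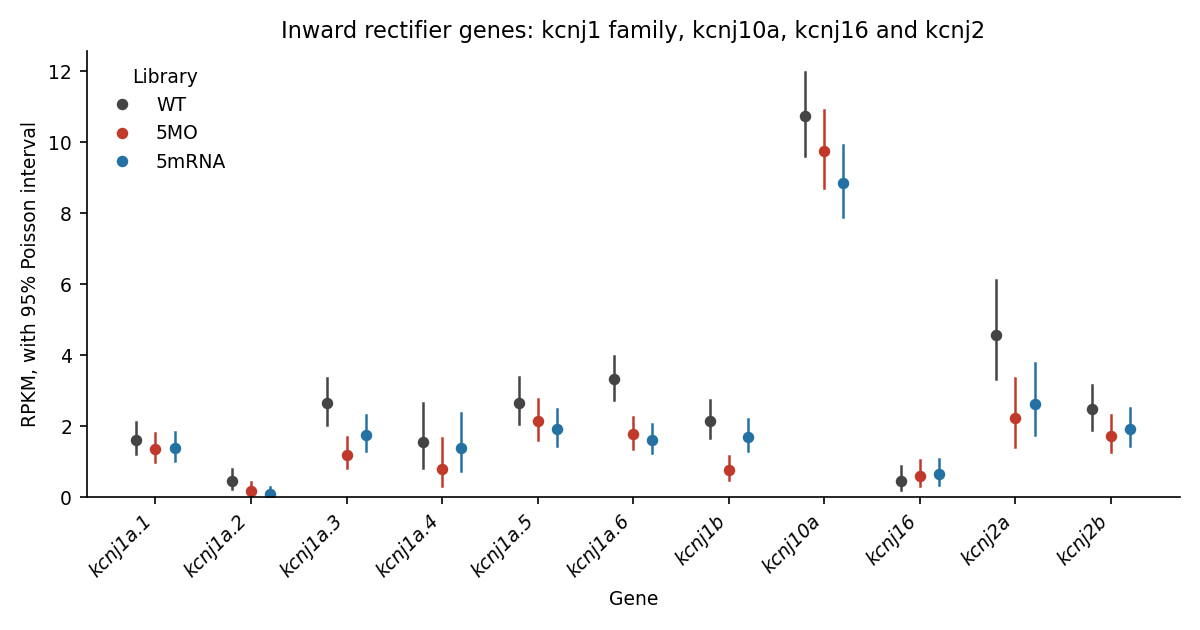
RPKM of the *kcnj1* genes, *kcnj10a*, *kcnj16* and the *kcnj2* genes in WT (grey), 5MO (red) and 5mRNA (blue), 1 library each, with bars for the 95% Poisson interval of the reads. The 7 *kcnj1* genes lie highest in WT, with *kcnj1b* at 2.15, 0.774 and 1.71 RPKM, and *kcnj10a* is the most abundant of those drawn.

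Of the classical Kir2 rectifiers, which hold the resting potential of muscle and heart, *kcnj2a* was lower than WT in both injected libraries. It was measured at 4.57, 2.24 and 2.63 RPKM, with ratios of 0.491 (0.284 to 0.829) and 0.575 (0.348 to 0.937). These rest on 45, 23 and 29 recovered reads, which may be too few by a whole multiple, and the intervals would then be too wide, since the length recovered with them, 505 bases, is shorter than the gene row at chr12:35586277-35587791. Its paralog *kcnj2b* was at 2.47, 1.73 and 1.93 RPKM with intervals that held 1. The related *kcnj12b* was lower in 5mRNA, at 8.21, 7.10 and 5.66 RPKM with ratios of 0.865 (0.736 to 1.02) in 5MO and 0.690 (0.582 to 0.817) in 5mRNA, while *kcnj12a* was at 0.714, 0.514 and 0.955 RPKM and *kcnj14* at 4.16, 3.40 and 4.04 RPKM. Skeletal muscle markers showed no common direction, with 5 of 10 higher in 5MO, and the part of muscle cells in these levels was not tested.

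Glial and renal Kir4.1, *kcnj10a*, was the most abundant inward rectifier at 10.7, 9.76 and 8.86 RPKM, with a ratio in 5mRNA of 0.824 (0.702 to 0.967) and in 5MO of 0.908 (0.774 to 1.06). The *kcnj13* channel acts in zebrafish pigment cells, where its mutants have broad stripes. One of its rows, on the minus strand of chromosome 15, was at 3.03, 2.81 and 3.03 RPKM, and the other, inside it on the plus strand, at 1.34, 2.02 and 1.58 RPKM. With a library kit that does not mark strand, the reads of these 2 overlapping rows cannot be told apart, and neither value is assigned to the channel here. The 4 pigment cell markers over the filter were all lower in 5MO than in WT, against 49% of all genes. The summed level over 5 markers was 174 RPKM in WT, 145 in 5MO and 171 in 5mRNA.

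G-protein-gated rectifiers of neurons and heart, *kcnj3a*, *kcnj3b*, *kcnj5*, *kcnj6* and *kcnj9*, had ratios to WT between 0.838 (*kcnj5*) and 1.13 (*kcnj3a*) in 5MO, each with an interval that held 1. In 5mRNA *kcnj9* was higher, at 6.00 RPKM against 4.64 in WT and 3.92 in 5MO, a ratio to WT of 1.29 (1.06 to 1.59). Among the ATP-sensitive channels, which couple metabolism to the membrane potential, *kcnj11* was at 4.88, 4.30 and 4.95 RPKM and its relative *kcnj11l* at 8.66, 5.78 and 7.38 RPKM. For *kcnj11l* the ratio in 5MO was 0.668 (0.540 to 0.823). The vascular member *kcnj8* was at 0.861, 1.38 and 0.402 RPKM from 21, 35 and 11 reads. It had the largest increase of the 100 genes in 5MO against 5mRNA, 3.43 (1.70 to 7.48), although the intervals of both injected libraries against WT held 1. The sulfonylurea receptors that complete these channels were at 7.22, 6.96 and 7.76 RPKM for *abcc8*, the partner in islet cells, and at 5.58, 6.997 and 6.88 RPKM for *abcc9*, the partner in vessels and heart.

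Two-pore channels held the 2 largest decreases of the 100 genes in 5mRNA against WT. The acid-sensitive channel *kcnk5a*, at chr17:48601140-48623364, was at 2.95 RPKM in WT, 1.62 in 5MO and 0.798 in 5mRNA, from 112, 64 and 34 reads. The 3 libraries were thus in steps, with ratios to WT of 0.549 (0.397 to 0.753) and 0.271 (0.179 to 0.401) and a ratio of 5MO to 5mRNA of 2.03 (1.32 to 3.17). Its paralog *kcnk5b*, whose mutation in zebrafish overgrows the fins, was at 1.83, 1.18 and 1.27 RPKM with intervals that held 1 on 18, 12 and 14 recovered reads, which may be too few by a whole multiple. A lower level in both injected libraries was also found for *kcnk1b*, a weak inward-rectifying leak channel and the most abundant of the family, at 8.02, 5.15 and 5.11 RPKM from 178, 119 and 127 reads. Its ratios were 0.642 (0.505 to 0.815) and 0.637 (0.503 to 0.804), while *kcnk1a* was at 1.75, 2.16 and 1.28 RPKM.

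The halothane-inhibited channels did not move together. For *kcnk12*, levels were 1.08, 0.519 and 0.297 RPKM from 26, 13 and 8 reads, with ratios to WT of 0.480 (0.227 to 0.969) and 0.275 (0.107 to 0.624). In the other direction, *kcnk13a* was at 0.335, 0.594 and 0.920 RPKM from 13, 24 and 40 reads, with ratios of 1.77 (0.868 to 3.79) and 2.75 (1.44 to 5.59), and *kcnk13b* at 0.579, 0.994 and 0.997 RPKM with intervals that held 1. Few reads also lay behind *kcnk7*, with 6, 13 and 18 reads and ratios of 2.08 (0.738 to 6.68) and 2.68 (1.02 to 8.24).

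The stretch-sensitive channel *kcnk2a* had the largest decrease of the 100 genes in 5MO against 5mRNA. It was at 1.11 RPKM in WT, 0.518 in 5MO and 1.57 in 5mRNA, from 31, 15 and 49 reads, lowest in 5MO and highest in 5mRNA. The ratio of 5MO to 5mRNA was 0.330 (0.172 to 0.598), and that of 5MO to WT 0.465 (0.233 to 0.887). The paralog *kcnk2b*, at 5.09, 4.09 and 4.64 RPKM, had intervals that held 1. Next in that comparison among two-pore genes was *kcnk18*, a calcium-regulated channel of mammalian sensory neurons, at 0.702, 0.357 and 0.848 RPKM from 17, 9 and 23 reads. For *kcnk9*, *kcnk15* and *kcnk3a* the intervals held 1 in the 3 comparisons. Under the filter, *kcnk3b* had 15, 3 and 28 reads, and *kcnk4a*, of the same stretch-sensitive group as *kcnk2a*, had 63, 29 and 63 reads.

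The calcium- and sodium-activated channels were lower in 5MO than in 5mRNA with a median log2 ratio of -0.33. For *kcnma1a*, 2372, 2185 and 2953 reads gave ratios to WT of 0.885 (0.835 to 0.938) in 5MO and 1.11 (1.05 to 1.17) in 5mRNA. Its high read number makes these intervals narrow, but a difference of this size has no replicate to be set against. The *kcnn1a* gene was lower in 5MO only, with a ratio of 0.845 (0.788 to 0.905) to WT and 0.843 (0.788 to 0.901) to 5mRNA. The sodium-activated channel *kcnt1* was at 3.25 RPKM in WT, 2.21 in 5MO and 4.38 in 5mRNA, from 211, 149 and 318 reads. It lay below WT in 5MO, with a ratio of 0.678 (0.546 to 0.841), and above WT in 5mRNA, with a ratio of 1.34 (1.13 to 1.61), so that 5MO had 0.504 (0.412 to 0.615) of the 5mRNA level. Its relative *kcnt2* was at 0.386, 0.568 and 0.895 RPKM from 15, 23 and 39 reads, lowest in WT, with a ratio in 5mRNA of 2.32 (1.25 to 4.53). The epithelial and blood cell channel *kcnn4* had 17, 18 and 9 reads.

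**Figure D5:**
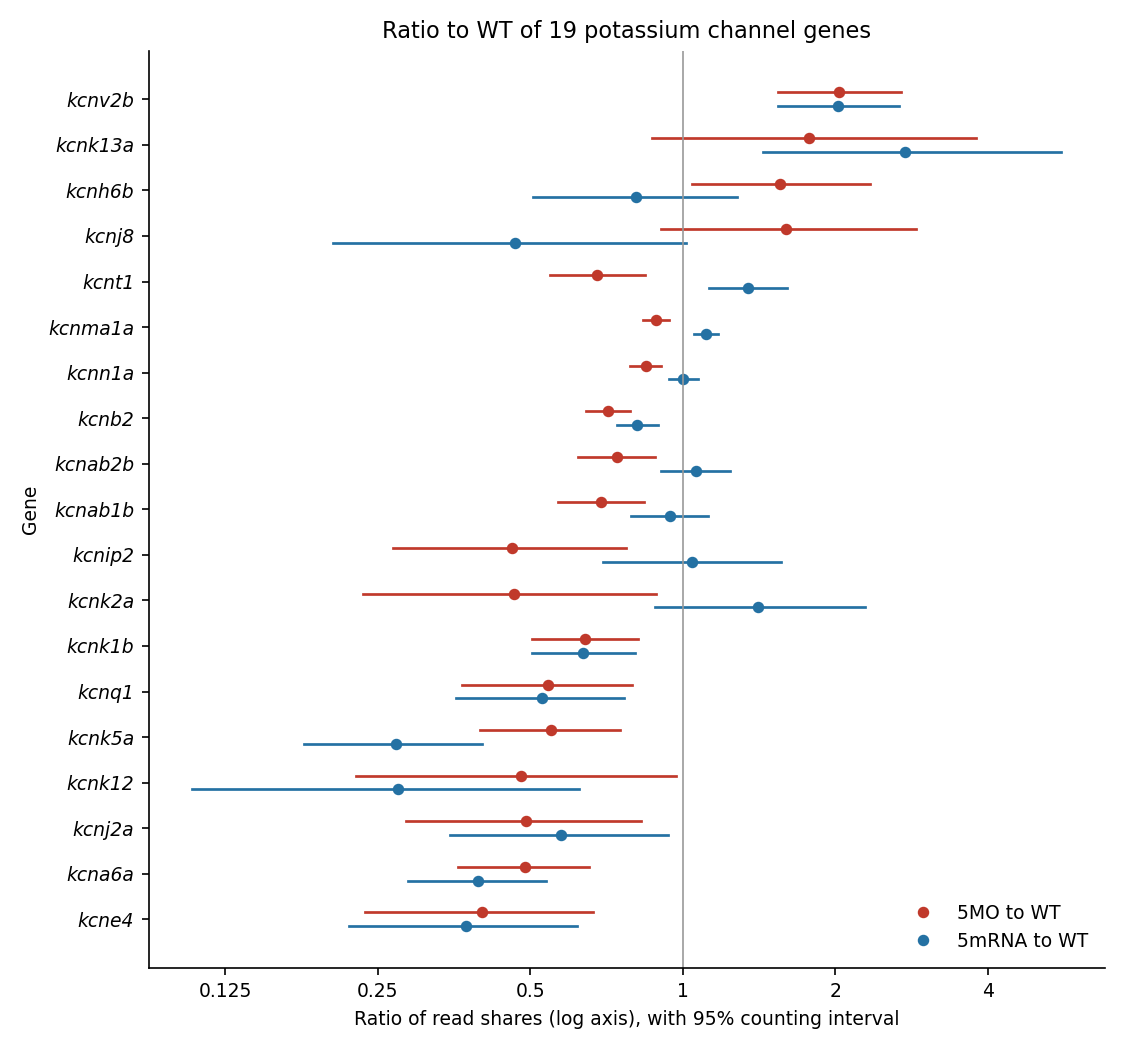
Ratio of read shares to WT on a log axis for 19 potassium channel genes, chosen after their values were seen, in 5MO (red) and 5mRNA (blue), with bars for the 95% counting interval. *kcnv2b* lies right of 1 in both libraries (2.03 and 2.02), *kcna6a* left of 1 in both (0.487 and 0.394), and *kcnt1* left in 5MO (0.678) and right in 5mRNA (1.34).

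Of the 10 accessory subunits over the filter, 1 was higher in 5MO than in WT and 9 were lower. Lower there were 49% of all genes and 66 of the 100 potassium channel genes. The 4 *kcnab* genes, cytoplasmic beta subunits of Kv1 channels, were all lower in 5MO, and their summed level was 32.6 RPKM in WT, 26.2 in 5MO and 32.1 in 5mRNA. Of them *kcnab2b* was at 11.2, 8.27 and 11.8 RPKM, with a ratio in 5MO of 0.741 (0.622 to 0.882), and *kcnab1b* at 6.12, 4.22 and 5.76 RPKM, with a ratio of 0.690 (0.567 to 0.838). Both lay at about the WT level in 5mRNA, while *kcnab2a*, at 12.5, 11.4 and 12.1 RPKM, and *kcnab1a*, at 2.90, 2.38 and 2.43 RPKM, had intervals that held 1. The pore-forming *kcna* genes that these subunits join had no common direction, as given above.

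Beside the 49% of all genes and 66 of the 100 potassium channel genes that were lower in 5MO than in WT, 4 of 5 KChIP genes were lower. These encode calcium-binding subunits of the A-type Kv4 channels. The largest difference was that of *kcnip2*, which in mammals is the cardiac form, at 2.27, 1.05 and 2.37 RPKM from 48, 23 and 56 reads. It was low in the 5MO library alone, at 0.460 (0.267 to 0.772) of WT and 0.442 (0.260 to 0.730) of 5mRNA. Of 6 heart markers, 5 were higher in 5MO than in WT, against 51% of all genes. The part of heart cells in the *kcnip2* difference was not tested. The abundant *kcnip1b* had a ratio of 0.833 (0.713 to 0.973) in 5MO, *kcnip3b* one of 0.746 (0.580 to 0.959), and *kcnip3a* one of 1.01 (0.780 to 1.304). The small single-span subunit *kcne4*, known in mammals as a brake on several Kv channels, was the only *kcne* row and lay under the filter, at 0.807, 0.324 and 0.301 RPKM from 55, 23 and 23 reads. Its ratios to WT were 0.402 (0.236 to 0.665) and 0.373 (0.219 to 0.617), and its row overlaps that of another gene on the opposite strand. With a library kit that does not mark strand, reads from a shared stretch could not be told apart. The BK subunit *kcnmb2* had 12, 11 and 11 recovered reads. Like those of *kcnip3a*, these may be too few by a whole multiple.

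Lower in both injected libraries than in WT by at least 1.5-fold were 7 of the 100 genes, against 2.69% of all genes, and higher in both were 4, against 2.74%. The lower genes were *kcna6a*, *kcnq1*, *kcnj1a.6*, *kcnj2a*, *kcnk5a*, *kcnk1b* and *kcnk12*, and the higher ones *kcnv2b*, *kcnk13a*, *kcnk13b* and *kcnk7*. Both comparisons use the same WT library, so a single high or low value in WT is enough to place a gene among these. In WT, *kcnk13a* and *kcnk7* were under 0.5 RPKM and reached the filter only through the injected libraries. In 5mRNA, *kcnk12* was under 0.5 RPKM and reached it through the other libraries. Zebrafish keep many duplicated genes from the genome duplication of bony fish, and 22 pairs of a and b copies had both genes over the filter. Both copies were lower in 5MO than in WT in 10 pairs, both higher in 4 and 1 of each in 8. In 5mRNA against WT the same counts were 7, 7 and 8. Taken singly, 66 of the 100 genes were lower than WT in 5MO and 52 in 5mRNA, against 49% and 48.7% of all genes. Whether the copies of a pair moved together beyond these shares was not tested. Overlap with another row of the table touched 24 of the 110 rows, including *kcnc1b*, *kcnd3*, *kcnh7*, *kcnk5b* and *kcnip1b*.

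Genes that work with potassium channels were taken from lists by symbol. Of all genes, 51% were higher and 49% lower in 5MO than in WT. Of 11 partner proteins, among them *abcc8*, *abcc9* and the *dpp6* subunits of Kv4 channels, 9 were higher in 5MO than in WT, with a median log2 ratio of 0.05. Voltage-gated sodium channels (13 genes) and calcium channels (47 genes) had medians of -0.06 and -0.02, and chloride channels of the *clcn* family (12 genes) one of -0.08. The 4 HCN channels, cation channels akin to the *kcnh* family that pace heart and neurons, had a median of -0.40, with 3 lower and 1 higher. The lowest relative to WT, *hcn3*, was at 1.201 RPKM in WT, 0.577 in 5MO and 0.803 in 5mRNA. From 24, 12 and 18 reads its ratio in 5MO was 0.480 (0.219 to 0.999). From 117, 78 and 89 reads, *hcn4* had ratios to WT of 0.640 (0.475 to 0.860) in 5MO and 0.679 (0.509 to 0.902) in 5mRNA. The most abundant, *hcn2b*, had a ratio in 5MO of 0.867 (0.752 to 0.998), and *hcn4l* one of 1.09 (0.897 to 1.32). Of 30 rows with *slc12*, *slc24* or *slc9* symbols, most of them transporters of K+ or sodium, 20 were lower in 5MO (median -0.16). Without the 2 rows of the scaffold protein *slc9a3r1*, left out after their values were seen, 20 of 28 were lower (median -0.21). Of 16 subunits of the Na,K-ATPase, the pump that builds the K+ gradient, 11 were higher (median 0.12). Their summed level was nevertheless not higher, at 1676 RPKM in WT, 1647 in 5MO and 1585 in 5mRNA. In 5mRNA against WT the medians in this order were 0.10, 0.02, 0.11, -0.07, -0.32, -0.03 and -0.15.

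Some further rows carry symbols of potassium channels that the rule does not take in. In WT, 5MO and 5mRNA levels were 1.16, 0.866 and 1.44 RPKM for *KCNJ4*, 9.58, 10.4 and 12.3 RPKM for *KCNAB3* and 9.48, 9.44 and 12.7 RPKM for *knca7*, while *KCNJ10* had 2, 6 and 3 reads.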

How the data were processed

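Total RNA of whole larvae was sequenced as read pairs, with 1 library per group. The authors aligned the reads, and the submitters' processing notes name STAR 2.5.2a and the genome build danRer10. The counting tool and the annotation are not given in the sources used here. The deposited values are RPKM, for which the authors scaled a gene's reads to its length and to 1 total per library. Of 28117 rows, 33 name no gene, hold 35.7% to 36.1% of the RPKM sum of a library, and were left out.

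From the RPKM steps whole reads were recovered for all 110 potassium channel rows, as the smallest whole numbers. The tolerance was 1e-05 of a read, beside the rounding of the deposited values. True reads may be a whole multiple of these, and the intervals are then too wide. Recovery was tested on simulated reads built from the recovered lengths and levels. That test cannot settle which genes here have such a multiple. The change of a gene was the log2 ratio of RPKM + 0.1, which understates the change of low genes, over genes with a mean of at least 0.5 RPKM. Calls were at 1.5-fold and 2-fold on that scale, or a 95% interval of the ratio of read shares that excluded 1. With 1 library per group there was no test. Python 3.11.15, numpy 2.4.6, scipy 1.17.1 and pandas 2.3.3 were used.

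Families and lists were taken by symbol, and 108 of the 110 gene identifiers were found in a separate table of gene names, 58 with the same symbol. Genes named in the text are the 5 with the largest increase and decrease in each comparison, the 10 most abundant, the most abundant of each family, those at least 1.5-fold away from WT in the same direction in both injected libraries, and channels with a known role. Others are named to complete a family, a paralog pair or a class and were chosen after their values were seen. The potassium channel genes, the lists and the rules were chosen with earlier results of these data known. As alternatives, the pseudocount was set to 1 or 0.01, the filter was moved, and the libraries were rescaled. Some potassium channel genes count in the totals but are not reported here by name.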

Additional observations from a re-analysis of the deposited data

How the results depend on the processing

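The median log2 ratio of the potassium channel genes kept its sign in all alternatives, from -0.15 to -0.13 for 5MO against WT, from -0.04 to -0.02 for 5mRNA against WT and from -0.12 to -0.08 for 5MO against 5mRNA. Counts of genes at least 1.5-fold apart depended on the pseudocount. With a pseudocount of 1 they fell to 1 higher and 8 lower for 5MO against WT, 1 higher and 5 lower for 5mRNA against WT, and 1 higher and 4 lower for 5MO against 5mRNA. With a mean of at least 1 RPKM, which 85 genes reach, the counts of higher genes were 2, 2 and 3 in the same order. No other filter, pseudocount or rescaling moved these counts by over 1.5 times. Of 636 values of the named genes under the alternatives, 631 moved by less than their counting interval, and none of those at least 1.5-fold apart changed sign. The 5 that moved, for kcnj8, kcnk13a, kcnk5a and kcne4, did so at a pseudocount of 1. No paired analysis was possible because each group has 1 library. For the same reason no library could be left out. Depth limits genes with few reads, such as kcnk7 with 6 reads in WT, most.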
